A study of Brassica napus with 6 samples.

Results

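The miR156 family was described in shoot apices of Brassica napus (oilseed rape). In the small RNA files, its members are the known miRNAs named miR156, which are bna-miR156d-f, bna-miR156bcg, bna-miR156h, bna-miR156i and bna-miR156j, 5 of 401 listed miRNAs. In the degradome files, its members are all records under a miR156 name, whatever the species prefix, 159 of 1089 records. Shoot apices of rod-like and of normal plants, grown together in the field, were taken when the 3-month-old plants began to bolt, and each RNA sample pooled 6 plants. The labels give no genotype for either plant type and do not say what rod-like growth looks like. Small RNA was sequenced as 2 files for rod-like and 2 files for normal plants, and the degradome, which reads the 5′ ends of cleaved transcripts, as 1 library for each. The rod-like degradome sample is numbered 3 in the labels, and whether it shares RNA with a small RNA sample is not given. The files measure no marker transcripts, so the labelled tissue was not checked.

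In plants, miR156 pairs with and cuts transcripts of SPL genes. These encode transcription factors that promote adult leaf traits and flowering and affect branching. It is abundant in young shoots and declines as the shoot matures, while miR172, which acts on AP2-type flowering repressors, increases. High miR156 is known for keeping shoots juvenile and bushy in Arabidopsis and rice.

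The degradome files give the sequences of 3 miR156 names, one from Brassica rapa (bra), one from poplar (ptc) and one from peanut (ahy) by their prefixes. No record had a bna name, and the files do not pair the 5 counted forms with sequences, so the forms below are not tied to these names. The 3 sequences are shown because they differ at a base that bears on the listed scores. They are written 5′ to 3′ with T for U, as deposited, and capitals mark the seed, bases 2 to 8.
bra-miR156g-5p: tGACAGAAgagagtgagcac
ptc-miR156k: tGACAGAAgagagggagcac
ahy-miR156c: tTGACAGAagagagcgagcac

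The bra and ptc names share the seed GACAGAA and are 20 bases long, and they differ by T14G (bra base first, position from the 5′ end of bra-miR156g-5p). The ahy name is 21 bases long. It begins with 1 extra base, which moves its seed to TGACAGA, and beyond that base it differs from bra-miR156g-5p by T14C in the same numbering.

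Under the bra and ptc names, 32 target transcripts had 1 site each, and these sites held 8 different sequences. They are shown, each with 1 transcript that carries it, because they show which bases vary among the cleaved sites. Sites are written 5′ to 3′ on the transcript. Capitals mark the 13 bases that face bases 1 to 13 of bra-miR156g-5p and were the same in all 32 sites.
BnaA02g14580D: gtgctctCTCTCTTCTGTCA
BnaA03g13580D: gcgctctCTCTCTTCTGTCA
BnaA09g27960D: gtgctttCTCTCTTCTGTCA
BnaA05g09840D: ttgcttgCTCTCTTCTGTCA
BnaC06g41420D: ctgctctCTCTCTTCTGTCA
BnaCnng61400D: gtgctcaCTCTCTTCTGTCA
BnaC05g21280D: gtgttctCTCTCTTCTGTCA
BnaC03g27870D: ttgctctCTCTCTTCTGTCA

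The first of these sequences was carried by 22 of the 32 transcripts, 10 with an A and 12 with a C identifier, the letters that name the subgenomes of this allotetraploid crop. The others were carried by 1 or 2 transcripts each. Counted from the 5′ end of the site, they differed from the common sequence by T2C, by C6T, by G1T with C6T and T7G, by G1C, by T7A, by C4T and by G1T, in the order shown. Every difference faced bases 14 to 20 of the miRNA.

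In the small RNA files, bna-miR156bcg, bna-miR156i and bna-miR156j were higher in rod-like than in normal apices. The ratios were 1.57 to 1.93 with factors from all listed miRNAs. With factors from known miRNAs alone, their log2 ratios were only 0.16 to 0.45. The weight within the family moved from bna-miR156d-f and bna-miR156h towards bna-miR156bcg. The size of the ratios, and whether the family as a whole was higher, depended on how the libraries were scaled, as given below. The composition of the family does not depend on scaling. Summed counts over all listed miRNAs were 712169 and 713637 in the rod-like files and 625795 and 629101 in the normal files. The files of a plant type differed by no more than sampling noise, and each plant type was counted as 1 sample (n = 1). No difference below was therefore checked against a spread between pools of plants. In whole apices, a different number of cells of a type and a different amount of RNA per cell cannot be told apart, and how reads that match more than 1 form were counted is not stated. Levels are reads per 1000000 listed miRNA reads (RPM), scaled with TMM factors. Intervals are exact 95% intervals that cover counting error only. Those of ratios and odds ratios use the mean count of the 2 files of a plant type. They are therefore wider than intervals on the summed counts would be.

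The most abundant form was bna-miR156d-f, at 25095 and 25630 RPM in the rod-like files, against 22067 and 21568 RPM in the normal files. The ratio of rod-like over normal was 1.16 (1.14 to 1.19). The direction turned under one scaling: the log2 ratio was 0.22 with TMM factors over all listed miRNAs but -0.28 with factors from known miRNAs alone.

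The form bna-miR156bcg had 24866 and 24876 RPM in the rod-like files and 15954 and 15644 RPM in the normal files. It stood far higher in both rod-like files and reached nearly the level of bna-miR156d-f there, with a ratio of 1.57 (1.54 to 1.61). In both plant types bna-miR156d-f and bna-miR156bcg ranked 6 and 7 by abundance among the 74 known miRNAs.

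Of the scarcer forms, bna-miR156h had 2538 and 2425 RPM in rod-like files and 2540 and 2666 RPM in normal files. Its rod-like values lay below the normal ones, with a ratio of 0.953 (0.890 to 1.02). That interval includes no change, but it would be narrower on summed counts. The form bna-miR156i had 2283 and 2234 RPM in rod-like files, against 1414 and 1415 RPM in normal files, a ratio of 1.60 (1.47 to 1.73). For bna-miR156j the values were 406 and 377 RPM in rod-like files and 194 and 212 RPM in normal files, a ratio of 1.93 (1.56 to 2.39). Both bna-miR156i and bna-miR156j were higher in each rod-like file than in either normal file, as were bna-miR156d-f and bna-miR156bcg. How many other miRNAs were separated in this way was not counted, so the separation cannot be called particular to these forms. The ratio of bna-miR156j rests on 283 and 262 counts in rod-like and 123 and 138 counts in normal files and is the least precise of the 5.

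**Figure D1:**
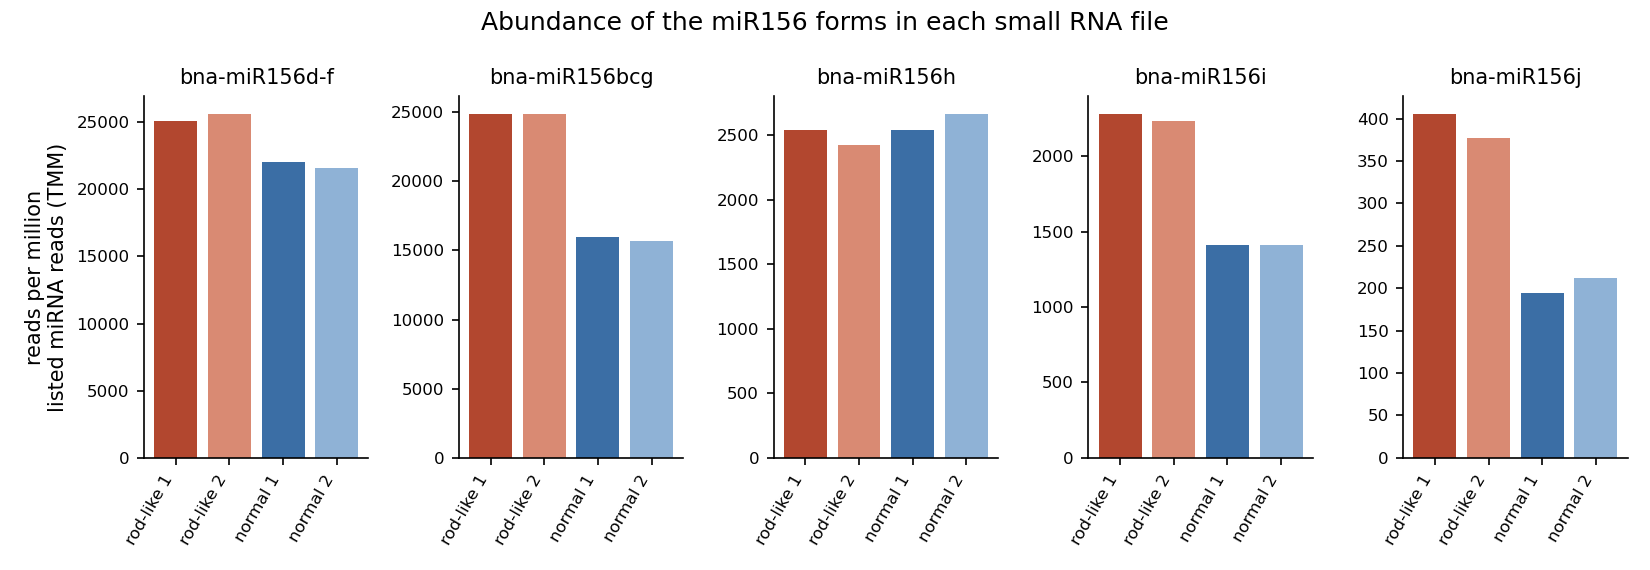
Bars give the level of each miR156 form in RPM, with TMM scaling, in the 2 rod-like and 2 normal files, 1 panel per form with its own axis. Rod-like bars of bna-miR156bcg lie at 24866 and 24876 RPM and its normal bars at 15954 and 15644 RPM, while the bars of bna-miR156h lie between 2425 and 2666 RPM.

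With edgeR's quasi-likelihood test, which treats the 4 files as separate samples and so compares these libraries rather than the plant types, 4 of the 5 forms were called higher and bna-miR156h was not called. Over all 391 miRNAs tested, 28.1% were called in either direction. Among the 65 known miRNAs tested, 52.3% were called higher, and the count for the family is to be read against that share. By size alone, 3 of 5 forms were at least 1.5-fold higher, against 15.3% of all miRNAs tested and 36.9% of known ones, but none of the 5 was when known miRNAs alone set the factors. Under that scaling edgeR called 3 forms higher and 2 lower, against 22 higher and 23 lower of the 65 known miRNAs tested. How many of all miRNAs passed 1.5-fold under it is not given here. The median log2 ratio of the 5 forms was 0.65, against 0.41 for the known and -0.0071 for all miRNAs tested.

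The summed family took 5.40% and 5.41% of listed counts in the rod-like files, against 4.27% and 4.29% in the normal files. Its level was 55187 and 55541 RPM in rod-like and 42170 and 41505 RPM in normal files, and the ratio was 1.32 (1.30 to 1.34). On the log2 scale the ratio of the family was 0.40 with TMM factors, 0.39 with DESeq2's size factors and 0.34 with the total count, but -0.092 with factors from known miRNAs alone. That last scaling lowered the median of all tested miRNAs by 0.50 on the log2 scale, and since a scaling shifts every miRNA alike, the distance of the family from that median, 0.41, does not depend on it. Against the known miRNAs the family, at 0.40 with TMM factors, lay at their median of 0.41. The log2 ratios of bna-miR156bcg, bna-miR156i and bna-miR156j stayed positive under all 4 scalings, at 0.16, 0.18 and 0.45 when known miRNAs alone set the factors. That of bna-miR156h was negative under all 4, and its interval did not include 0 with the total count (-0.23 to -0.039) or with known miRNAs alone (-0.66 to -0.47).

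**Figure D2:**
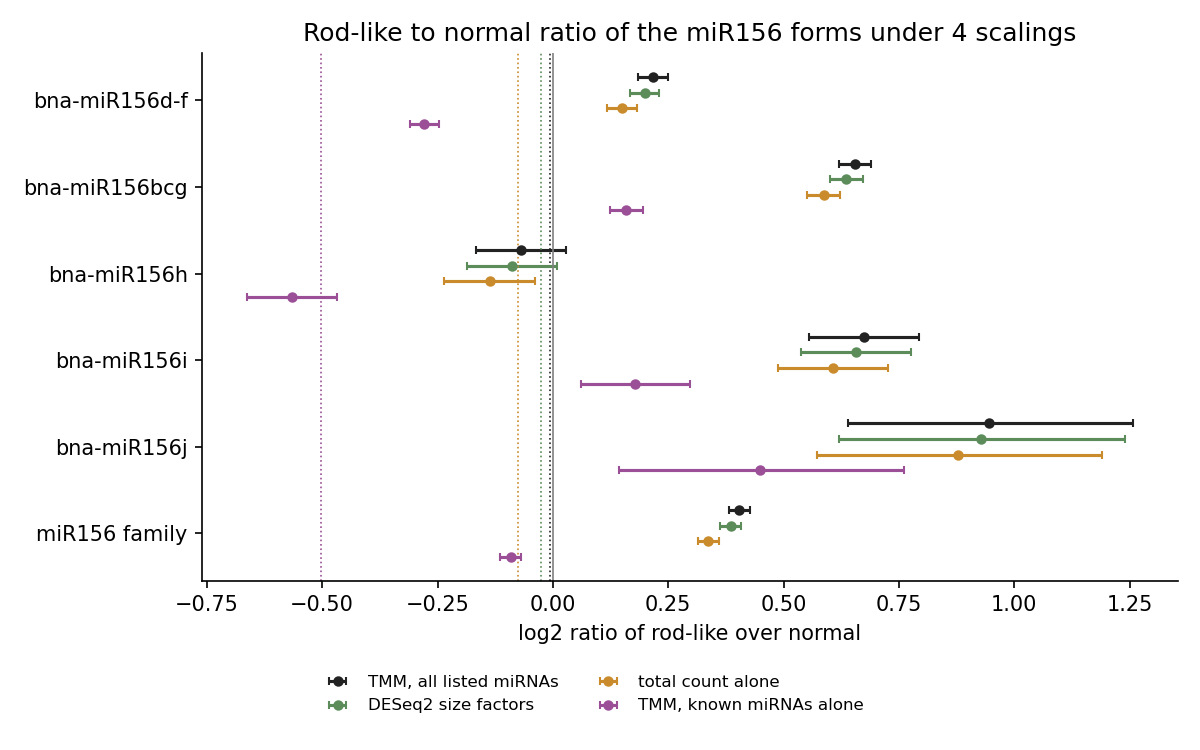
Points give the log2 ratio of rod-like over normal for each miR156 form and for their sum under 4 scalings. Bars are exact 95% intervals for counting error on mean counts per file. Dotted lines mark the median of all tested miRNAs in the same color. Each scaling moves all forms by the same amount, and bna-miR156d-f and the sum of the family lie left of 0 only when known miRNAs alone set the factors.

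Shares within the family are free of this choice. The share of bna-miR156d-f was 45.5% (45.0 to 46.0) and 46.1% (45.6 to 46.6) in the rod-like files, against 52.3% (51.7 to 52.9) and 52.0% (51.4 to 52.6) in the normal files, with Clopper-Pearson 95% intervals. The share of bna-miR156bcg was 45.1% (44.6 to 45.6) and 44.8% (44.3 to 45.3) in rod-like files, against 37.8% (37.3 to 38.4) and 37.7% (37.1 to 38.3) in normal files. Within rod-like apices the leading forms thus had almost equal counts, and within normal apices bna-miR156d-f clearly outnumbered bna-miR156bcg.

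In the rod-like files 0.991 and 0.971 counts of bna-miR156bcg were listed per count of bna-miR156d-f, against 0.723 and 0.725 in the normal files. The odds ratio of rod-like over normal was 1.35 (exact conditional 95% interval 1.31 to 1.40). The gap between plant types was many times that between files of a plant type, but the latter measures no spread between pools of plants.

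Among the minor forms, bna-miR156h made up 4.60% and 4.37% of the family in rod-like files, against 6.02% and 6.42% in normal files. The share of bna-miR156i was 4.14% and 4.02% in rod-like files and 3.35% and 3.41% in normal files. That of bna-miR156j was 0.735% and 0.678% in rod-like files and 0.460% and 0.511% in normal files. So bna-miR156h took a smaller part of the family in both rod-like files, and bna-miR156i and bna-miR156j a larger one. Relative to bna-miR156h, chosen here after its values were seen, the log2 odds ratio of rod-like over normal was 0.74 (0.59 to 0.90) for bna-miR156i and 1.02 (0.69 to 1.35) for bna-miR156j.

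A chi-square statistic over the counts of the 5 forms, divided by its degrees of freedom, was 1.51 between the rod-like files and 1.18 between the normal files. Between a rod-like and a normal file it was 106 to 119. The composition of the family differed between the libraries of the plant types by far more than counting error. The same held over all miRNAs with at least 10 counts, at 116 to 118, so it is not particular to miR156. The likeness of files that count as 1 sample says nothing of the spread between plants.

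**Figure D3:**
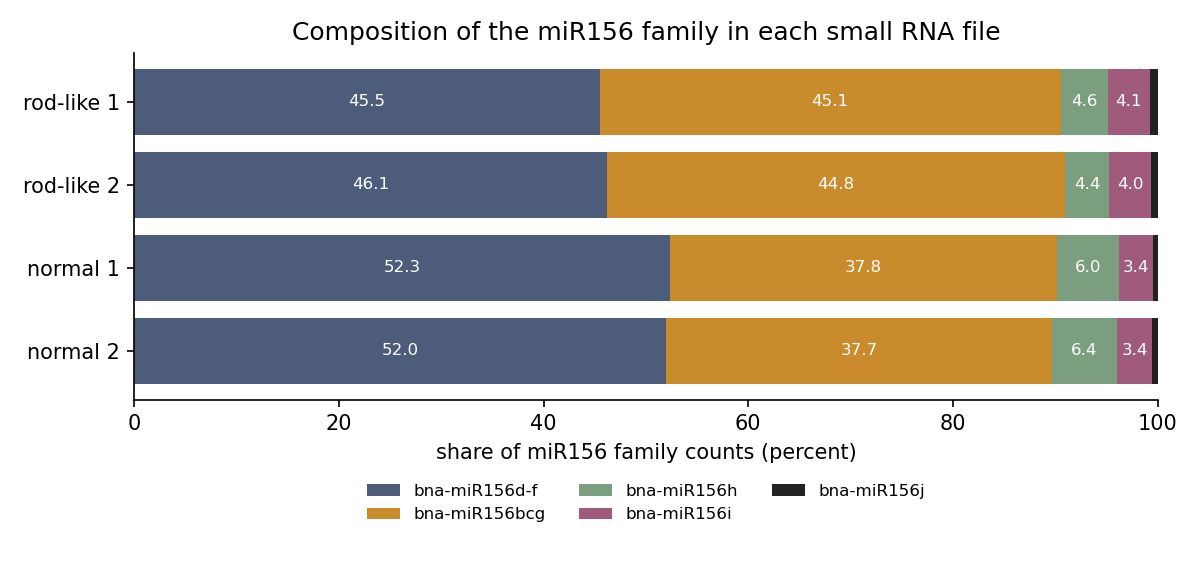
Each bar divides the miR156 counts of 1 small RNA file into the shares of the 5 forms, in percent, with the 2 rod-like files above the 2 normal files. The share of bna-miR156bcg is 45.1% and 44.8% in rod-like and 37.8% and 37.7% in normal files, and the files of a plant type look alike.

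Of the other phase-change miRNAs, no miR157 is listed among the known miRNAs, and miR172 is listed in 5 forms. The dominant one, bna-miR172e, had 66736 and 66929 RPM in rod-like files, against 44513 and 43758 RPM in normal files, a ratio of 1.51 (1.49 to 1.54). For bna-miR172d the values were 5011 and 4822 RPM in rod-like and 3699 and 3541 RPM in normal files, a ratio of 1.36 (1.29 to 1.43), which on the log2 scale was 0.44 with TMM factors and -0.054 with known miRNAs alone. The other 3 forms of miR172 had 2 to 10 counts per file and were not tested. Of the 7 miR156 and miR172 forms tested, 6 were called higher and none lower by edgeR, with a median log2 ratio of 0.60, against 52.3% of known miRNAs called higher and a median of 0.41 for the known. With known miRNAs alone as the scale, bna-miR156d-f and bna-miR156h were among the 23 of 65 known miRNAs called lower. With TMM scaling, the summed miR156 and both tested miR172 forms were thus higher in rod-like apices. With known miRNAs alone the summed miR156 and bna-miR172d turned lower, while the dominant bna-miR172e stayed higher, at a log2 ratio of 0.10.

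Likeness was measured as the distance between log2 ratios over the 2 plant types, among 38 known miRNAs outside the family with at least 100 counts in each. Nearest to bna-miR156bcg were bna-miR162b, bna-miR172e and bna-miR399d, at distances of 0.0043, 0.056 and 0.057. Nearest to bna-miR156d-f were bna-miR171i, bna-miR160e and bna-miR160a-d, at 0.069, 0.077 and 0.084. With 2 plant types the measure compares a single difference per miRNA.

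Over all 3 miR156 names the degradome listed 31 target transcripts in the rod-like and 51 in the normal library, and 31 were in both. The other 20 were listed in the normal library alone, 19 of them under ahy-miR156c only. Under the bra and ptc names the rod-like library held 31 targets and the normal library 32, with 31 in both. Each record carries a category, for which lower numbers are commonly used for positions with the most cleaved ends on a transcript. How the study defined it is not given in the sources used here. Each plant type has a single degradome library, and the comparison is therefore given as counts without a test.

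In the rod-like library all 31 sites were in category 0. In the normal library 31 of 32 were, and the other, position 610 of BnaC06g41420D, was in category 1 and was in category 0 in the rod-like library. The site listed in the normal library alone was position 938 of BnaC09g27080D, in category 0, which carries the common site sequence. No tag counts are given in the records, so the amount of cleaved transcript could not be compared between the plant types.

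The best-scored site was position 743 of BnaCnng61400D, where bra-miR156g-5p paired at every base with a score of 0. It was in category 0 in both libraries, and it is the site with T7A, whose changed base faces base 14 of the miRNA. The next best were sites with the common sequence, at a score of 0.5 under ptc-miR156k and 1 under bra-miR156g-5p. By identifier, the first of these were position 737 of BnaA02g14580D, 800 of BnaA04g24340D, 635 of BnaA04g27550D, 803 of BnaA05g02680D, 1376 of BnaA06g36780D, 1079 of BnaA07g08830D and 1133 of BnaA07g08840D. All 7 were in category 0 in both libraries.

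Scores followed from the pairing. In each of the 159 miR156 records the score equalled 1 per mismatch or gap plus 0.5 per G:U pair. Bases 1 to 13 of the bra and ptc names were paired in all of their sites, without a G:U pair. At base 14, bra-miR156g-5p had a mismatch in 27 of 30 sites, a G:U pair in 2 and a match in 1, whereas ptc-miR156k had a G:U pair in 29 of 30 and a mismatch in 1. The score was lower under ptc-miR156k for 27 of the 28 sites listed under both names and lower under bra-miR156g-5p for 1, that of BnaCnng61400D. Sites listed under the bra name alone were those of BnaA05g09840D and BnaCnng05200D, and those under the ptc name alone were those of BnaA09g27960D and BnaC05g21270D.

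**Figure D4:**
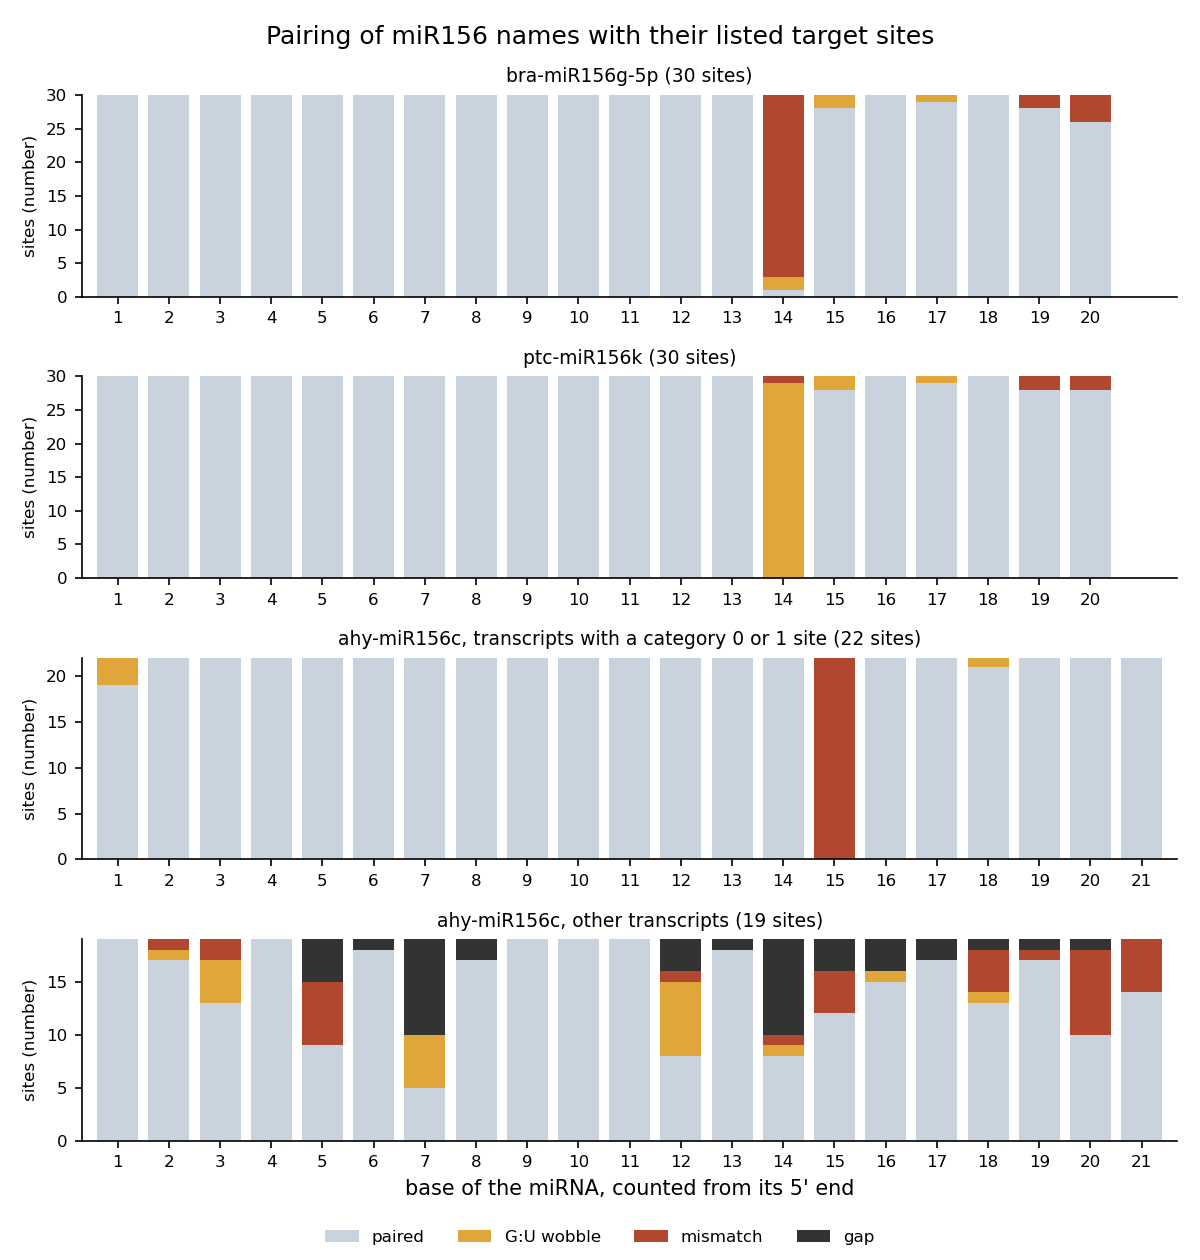
For each base of the miRNA, counted from its 5′ end, bars count the target sites in which that base was paired, in a G:U pair, mismatched or beside a gap, where a base of the transcript left out of the pairing is drawn at the miRNA base before it. Bases 1 to 13 of the bra and ptc names were paired in all 30 sites of each. In the 19 other sites of the ahy name, bases 1, 4 and 9 to 11 were always paired. Gaps there were most frequent at bases 7 and 14, in 9 sites each.

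The name ahy-miR156c stood apart. Its 41 records were all in category 2 and all in the normal library, with none in the rod-like library. In 22 of them the target was one of the 32 transcripts above, and the listed position lay 1 base further 3′ than the position under the bra or ptc name in all 22. Thus BnaA02g14580D was listed at position 737 under bra-miR156g-5p, in category 0, and at position 738 under ahy-miR156c, in category 2. The offset is the length of the extra 5′ base of ahy-miR156c. At all 22 sites its base 15, which lines up with base 14 of bra-miR156g-5p, was a mismatch.

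The other 19 ahy-miR156c records were on transcripts listed under no other miR156 name. Their scores were 4 in 5 records and 4.5 in 14, against 1 to 1.5 in the 22 records above. All 19 alignments had a gap, which none of the bra or ptc alignments had, and none was fully paired from base 2 to base 13. The records of ahy-miR156c thus fall in 2 groups, 22 at positions 1 base 3′ of a bra or ptc position and 19 at poorly paired sites. Whether the 22 records mark a further cut or list the same site again was not tested. A pair of the poorly paired sites, chosen after their values were seen, is shown for comparison with the 8 sequences above, without the gaps of the alignment.
BnaA03g26730D: atgcatctctctcttctctcaa
BnaA04g26090D: gggatcgtttctttgtcaa

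Among the 39 named miRNAs of the degradome, 10 were listed in 1 library alone, and after the 41 records of ahy-miR156c the next had 4, under bol-miR398a-5p. Counting ahy-miR156c, miR156 had 31 targets in the rod-like and 51 in the normal library. Without that name the counts were 31 and 32.

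**Figure D5:**
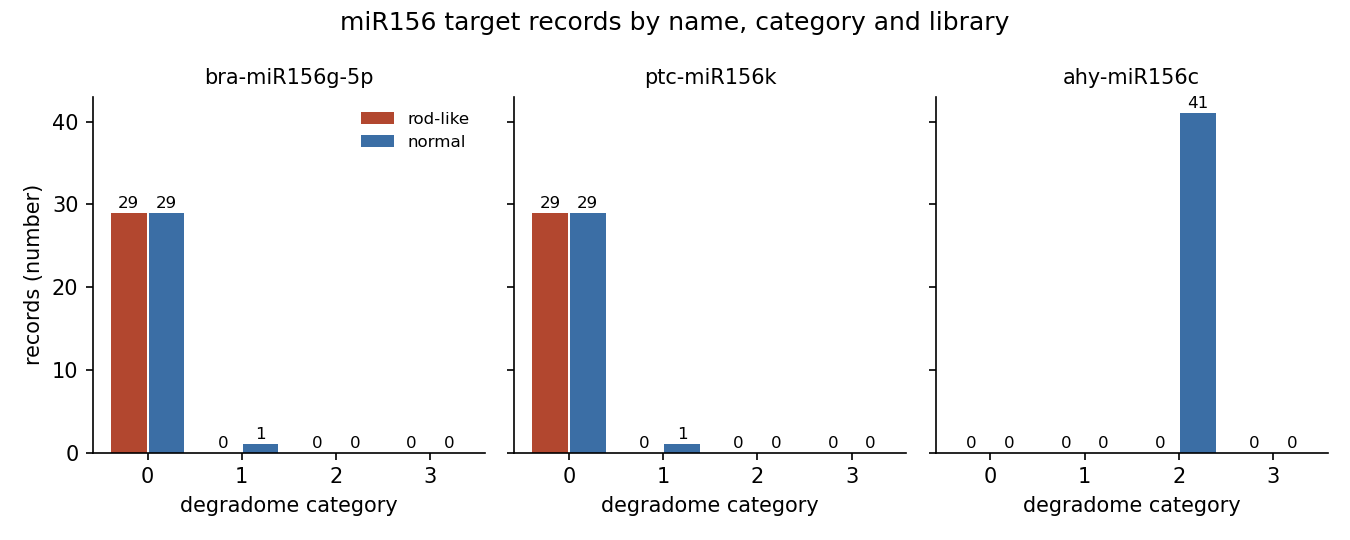
Bars count the degradome records of each miR156 name by category, with rod-like left of normal in each category. The bra and ptc names have 29 records each in category 0 in both libraries, and all 41 records of ahy-miR156c are in category 2 of the normal library.

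The 32 transcripts with a bra or ptc record were spread over both subgenomes, 13 with A and 19 with C identifiers. The C share was 59.4% (Clopper-Pearson 95% interval 40.6 to 76.3), against 53.6% (46.0 to 61.1) of the 179 targets of the other named families. The interval of the miR156 share includes the other share. By their identifiers 29 lay on 14 chromosomes, with up to 3 on one (A07, C03, C04 and C07), and 3 were not placed on a chromosome.

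At 5 positions, 737, 800, 803, 905 and 1079, an A and a C transcript had the site at the same position and with the same sequence, for example BnaA04g24340D and BnaC04g48150D at position 800. Neighbouring identifiers also recurred, as BnaA07g08830D with BnaA07g08840D, BnaC07g11380D with BnaC07g11390D and BnaC05g21270D with BnaC05g21280D. The site positions ran from 501 to 1376 bases into the transcripts. None of the 32 identifiers was found in the RefSeq gene table used here, so whether each is an SPL gene, and which one, cannot be stated.

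Set against other families, the miR156 counts depend on ahy-miR156c. Of the 51 targets of all 3 names, 60.8% (46.1 to 74.2) were listed in both libraries, and of the 32 targets of the bra and ptc names 96.9% (83.8 to 99.9) were. The share was 76.2% (52.8 to 91.8) for the 21 targets of miR172 and 69.8% (62.5 to 76.5) for the 179 targets of all other named families, miR172 and names listed in 1 library alone included. The miR156 share thus lay below that of the other families with ahy-miR156c and above it without. Category 0 held 100% of miR156 records in the rod-like library and 57.4% in the normal library over all 3 names, or 96.7% there without ahy-miR156c. It held 100% of miR172 records in both libraries, and of the records of all other named families 87.1% in the rod-like and 85.3% in the normal library. Records and targets of related genes share sequence and are not independent, so these intervals are too narrow, and the differences were not tested.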

How the data were processed

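The authors deposited whole-number counts per known and predicted miRNA. The mapper and the counting rule were not given in the sources used here. Degradome records carry, per the file headers, a score, position, category and P-value as deposited, and the target caller is not stated.

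Files of a plant type were compared by chi-square over miRNAs with at least 10 counts (p = 0.246 for rod-like, p = 0.952 for normal) and counted as 1 sample. Since amplified reads are not independent molecules, the intervals include counting error alone. Ratios use mean counts with edgeR's TMM factors. Calls were made in R 4.3.3 with the quasi-likelihood test of edgeR 4.0.16, filterByExpr and Benjamini-Hochberg adjustment at 0.05. These p-values rest on the spread among the files, which may be technical. Alternatives were other scalings, no low-count filter, DESeq2 1.42.0, a replicate block and each file left out. Tables were made with Python 3.11.15, pandas 2.3.3 and SciPy 1.17.1.

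The members, lists and naming rules were chosen with earlier results of these data known. Named are all 5 forms, the miR172 forms, the nearest 3 miRNAs by log2 ratio, the 8 best-scored targets in category 0 in both libraries and targets of category 0 or 1 in 1 library. Target sequences come from the degradome alignments. RefSeq gene names (assembly Da-Ae) matched 1 of 51 identifiers.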

Additional observations from a re-analysis of the deposited data

How the results depend on the processing

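Scaling moved the levels most. With the total count alone the log2 ratio of the family was 0.34, and with known miRNAs alone it was -0.092, reversed, as was that of bna-miR156d-f at -0.28. No form passed 1.5-fold with known miRNAs alone (0 of 5, against 3), and the share of all miRNAs that did so under it is not given here. All 5 forms were called by edgeR with the total count (4 higher, 1 lower) and with known miRNAs alone (3 higher, 2 lower). DESeq2's Wald test kept 4 calls, all higher. Leaving out each file in turn gave log2 ratios of the family from 0.39 to 0.42. Over all 391 miRNAs tested edgeR called 110, 65 higher and 45 lower, and with the total count 55 higher and 58 lower. With known miRNAs alone it called 22 higher and 23 lower of the 65 tested. DESeq2's Wald test called 57 of 401 miRNAs, 38 higher and 19 lower.

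The replicate block also called 4 forms, with 53 calls over the 391 miRNAs tested. Same-numbered files did not deviate together (correlation -0.087 over 109 miRNAs). Since files of a plant type differed by no more than sampling noise, this cannot show whether the numbers are pairs. They were not taken as pairs in the main test.

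Targets in the normal degradome numbered 32 without ahy-miR156c, 32 with categories 0 and 1 alone and 31 with category 0 alone, against 51. A limit of 0.01 on the caller's P-value could remove nothing, since all miR156 records had 0.008 or less. Differences in family share kept their direction without each file. As the files of a plant type count as 1 sample, this says nothing of the spread between pools of plants. The base of the miRNA at which a transcript was cut could not be computed, because the records give no start of the site, so the stricter rule on that base was not run.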

Other observations

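The 19 poorly paired ahy-miR156c records covered 11 different site sequences, and 5 of these recurred on 13 transcripts, in 4 cases on both A and C identifiers. In all 19 bases 9 to 11 of ahy-miR156c were paired.

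The P-value of the target caller was 0.004 in all 41 records of ahy-miR156c. For bra-miR156g-5p it was 0.008 in 28 of 29 rod-like records and 0.002 in 29 of 30 normal records, while for ptc-miR156k it was 0.002 in 28 of 29 rod-like and in 29 of 30 normal records. One other name was listed on a miR156 target, novel_mir_246 at position 1062 of BnaC04g48150D in the rod-like library, in category 2.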
